A study of Mus musculus with 9 samples.

Results

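The Neat1 and Malat1 locus is a stretch of mouse chromosome 19 that carries 2 neighbouring genes for long non-coding RNAs of nuclear bodies. Its members were the StyI restriction fragments with a midpoint in chr19:5770001-5870000 of the mm9 genome, which holds Malat1 (about 5795700 to 5802700) and Neat1 (about 5825000 to 5845500). This gave 157 of the 3053721 fragments analysed, and 977 fragments in the 300 kb on either side served as flanks. Malat1 held 12 of the members and Neat1 held 30.

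The DNA came from E14Tg2a mouse embryonic stem cells, a line of 129P2 background kept with LIF. High-salt recovered sequence (HRS) sequencing separates the DNA that stays with the insoluble material of salt-extracted nuclei after StyI digestion (the HRS fraction) from the DNA that is released (the Loop fraction). Each fraction was sequenced in 3 libraries, beside genomic DNA that was not fractionated, in 3 more titled D0, D12 and D21 (input replicates 1, 2 and 3 here), all from this single line with no treatment or genetic change named. The labels explain neither the D titles nor whether replicates were grown apart, and the p-values below rest on the spread between these libraries alone, part of which may be technical. The files count DNA, so neither the RNA of these genes nor marker genes of the cell type were measured. Library totals ranged from 39.1 to 62.9 M counts, with HRS replicate 3 the smallest.

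Malat1 RNA is an abundant nuclear transcript that collects in nuclear speckles, bodies rich in splicing factors. Neat1 RNA is the scaffold on which paraspeckles assemble at the site of its own transcription, and its long isoform is needed for that, whereas its short isoform covers only the 5′ part of the gene. Both genes are read from the minus strand, so the 5′ end of each lies at its higher coordinate. In the RefSeq annotation of the GRCm38.p6 assembly, Mascrna, the small RNA cut from the end of the Malat1 transcript, lies within Malat1.

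Counting in this assay starts from StyI sites, and 1 such site lies in the promoter of Malat1. The promoter is shown because the fragment on the gene side of the 5′ end had the lowest CPM in the Loop fraction among the members tested against it (below). That fragment entered the test through its HRS counts. Some members left out for low counts held no Loop counts at all, so its rank rests on the filter. The sequence is that of RefSeq, GRCm38.p6, chr19:5802623-5802922, minus strand, from 250 bases before to 50 bases after the start, with the StyI site in capitals. Neat1 was not in the table of promoters used here.
Malat1 promoter: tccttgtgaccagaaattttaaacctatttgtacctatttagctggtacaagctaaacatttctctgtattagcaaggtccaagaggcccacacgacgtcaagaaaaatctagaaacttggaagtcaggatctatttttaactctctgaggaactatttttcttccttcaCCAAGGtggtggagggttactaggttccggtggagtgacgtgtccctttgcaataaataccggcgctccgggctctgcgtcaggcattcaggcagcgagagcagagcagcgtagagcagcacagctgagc
The site runs from 80 to 75 bases before the start. StyI cuts at CCAAGG, which reads CCTTGG on the other strand, at CCATGG and at CCTAGG, and 34.5% of the 32851 promoters of this length in the table hold at least 1 of these on either strand.

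The locus as a whole was over-represented in the HRS fraction. It held 9566, 9813 and 8972 counts in HRS replicates 1, 2 and 3, against 5200, 4870 and 4967 in the Loop replicates and 5646, 4986 and 4558 in the inputs. Scaled to 1000000 counts of the library (CPM), HRS stood at 201 ± 25.1, Loop at 81.5 ± 3.72 and input at 87.2 ± 4.21 (mean ± SD, n = 3). Every HRS library lay above every Loop and input library, and HRS replicate 3 was the highest at 229.8 CPM. In edgeR's quasi-likelihood test across 25396 windows of 100 kb, HRS exceeded Loop by a log2 ratio of 1.38 ± 0.17 (SE; 2.60-fold, adjusted p = 8.84e-05). The window ranked 122 from the top, in a fit that called 24% of windows higher in HRS. Against input the log2 ratio was 1.39 ± 0.18 (adjusted p = 0.000159, rank 86 of 25406), where 25.1% of windows were called higher. These comparisons share the HRS libraries and are not independent. Loop and input differed by a log2 ratio of -0.05 ± 0.07 (adjusted p = 0.601 with edgeR), a fit in which 27.3% of windows were called in either direction.

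The flanks were also over-represented in HRS, but less. All 6 windows of 100 kb beside the locus had a positive log2 ratio of HRS over Loop, from 0.27 to 0.92, and 5 of them were called. The exception was the window just below the locus, chr19:5670001-5770000, at 0.27 ± 0.17 (adjusted p = 0.214 with edgeR). That window was called at 0.56 once fragment length was corrected for, in a fit that called 23.9% of windows higher. The next window above the locus, chr19:5870001-5970000, reached 0.42 ± 0.13 (adjusted p = 0.0201), and lost its call when any of the Loop libraries was left out (adjusted p from 0.0694 to 0.0898). Against input all 6 flank windows were called higher in HRS, with log2 ratios from 0.55 to 0.88. The windows on either side of the locus lost that call without input replicate 2 (adjusted p = 0.121 below and 0.0604 above) or input replicate 3 (adjusted p = 0.118 and 0.0697).

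To set the locus against its surroundings within each library, its mean CPM per fragment was divided by that of the 300 kb flanks. The quotient was 1.61, 1.60 and 1.54 in HRS replicates 1, 2 and 3. It was 0.949, 0.873 and 0.955 in the Loop replicates and 1.00, 1.03 and 1.01 in the inputs. The high level of HRS replicate 3 was therefore shared with the flanks, and its quotient was the lowest of the 3 HRS libraries. The difference between HRS and Loop was 0.78 on the log2 scale, with no overlap of libraries and an exact two-sided permutation p of 0.1, the smallest that 3 against 3 can give. With flanks of 100 kb the difference was 1.05, and with flanks of 1000 kb it was 0.88.

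**Figure D1:**
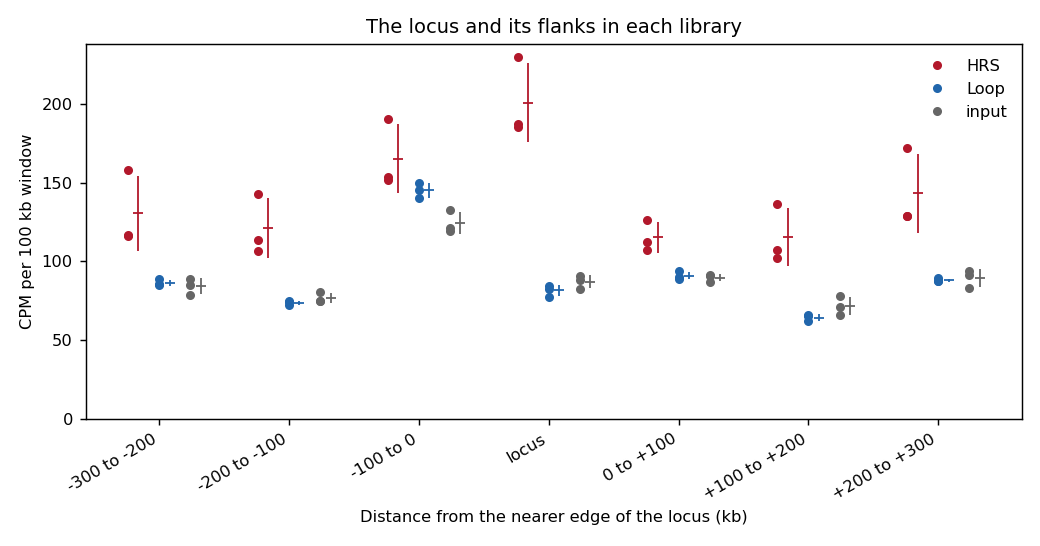
CPM of the locus and of 6 flanking windows of 100 kb (vertical axis, linear) by distance from the nearer edge of the locus (horizontal axis, kb) in each of the 9 libraries. Points are libraries and bars beside them are mean ± SD, and at the locus the HRS libraries lie between 186 and 229.8 CPM while Loop and input lie between 77.4 and 90.8 CPM.

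Malat1 showed the larger contrast of the 2 genes. Its 12 fragments held 1101, 1232 and 950 counts in the HRS replicates, 198, 187 and 186 in the Loop replicates and 300, 315 and 265 in the inputs. This corresponded to 23.1 ± 1.52 CPM in HRS, 3.10 ± 0.108 CPM in Loop and 5.06 ± 0.436 CPM in input (SD, n = 3). The 3 groups did not overlap, and the HRS replicates lay between 21.4 and 24.3 CPM. HRS exceeded Loop by a log2 ratio of 2.88 ± 0.17 (7.35-fold, adjusted p = 9.45e-10 over all 10 kb bins of the genome with edgeR), and only 0.0431% of bins had a higher ratio. Against input the log2 ratio was 2.32 ± 0.17 (5.0-fold, adjusted p = 8.29e-08). With fragment length corrected for, the ratios were 2.88 and 2.35.

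Loop in turn was below input over Malat1, by a log2 ratio of -0.58 ± 0.13 (adjusted p = 0.00105 with edgeR). With fragment length corrected for, it was -0.53 ± 0.11 (adjusted p = 0.0183), and 0.780% of bins had a lower ratio. Counting only fragments over 200 bp gave -0.45 and ended the call (adjusted p = 0.163).

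Along Malat1, from its 3′ to its 5′ end, every fragment with counts was high in HRS. Of the 12 fragments, 11 were counted and the remaining 1 is 8 bp long, and in all 11 every HRS library was above every Loop and every input library. Fragment chr19:5797243-5798051, in the 3′ part of the gene, held 74, 73 and 63 counts in HRS, 10, 3 and 3 in Loop and 22, 14 and 26 in input. Its log2 ratio of HRS over Loop was 3.87 ± 0.45 (adjusted p = 4.84e-09 with edgeR), and 4.54 without Loop replicate 1, the library with 10 counts. It was 3.43 with fragment length corrected for. Fragment chr19:5799229-5799278, only 49 bp long, held 116, 129 and 80 counts in HRS, 15, 38 and 22 in Loop and 7, 17 and 11 in input. Its log2 ratio was the highest of the named fragments against input, 3.57 ± 0.33, and 2.25 ± 0.36 against Loop. The ratio over Loop was 3.76 with fragment length corrected for. Fragment chr19:5800427-5800789, in the 5′ part, held 190, 188 and 185 counts in HRS, 20, 20 and 24 in Loop and 34, 51 and 33 in input, with log2 ratios of 3.31 ± 0.35 over Loop and 2.66 ± 0.29 over input.

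The fragment that ends at the 5′ end of Malat1, chr19:5800789-5802749, was nearly empty in the Loop fraction. It held 37, 47 and 33 counts in HRS, 0, 2 and 0 in Loop and 11, 11 and 5 in input. The summed counts of 117 and 2, scaled by library totals, gave a ratio of HRS over Loop of 75.5, with an exact 95% interval of 20.4 to 631 that covers counting error only. The log2 ratio fitted by edgeR was 5.78 ± 0.69 (54.9-fold). With fragment length corrected for it was 5.26 ± 0.65 (38.4-fold). Against input, where counts were higher, the log2 ratio was 2.49 ± 0.37 (5.61-fold, adjusted p = 0.00012 with edgeR). The next fragment, outside the gene, chr19:5802749-5803324, held 134, 182 and 118 counts in HRS, 16, 17 and 21 in Loop and 54, 62 and 40 in input.

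Neat1 was higher in HRS in each of 4 equal sections (below), and most so in the section at its 5′ end. Its 30 fragments held 2100, 2115 and 1827 counts in HRS, 1032, 1074 and 911 in Loop and 1180, 1048 and 951 in input. This was 42.6 ± 3.62 CPM in HRS, 16.3 ± 0.781 CPM in Loop and 18.2 ± 0.910 CPM in input (SD, n = 3), with every HRS library above the other 6. The log2 ratio was 1.37 ± 0.19 over Loop (2.58-fold, adjusted p = 1.79e-05) and 1.36 ± 0.19 over input (2.57-fold, adjusted p = 5.65e-05), both with edgeR. Corrected for fragment length, HRS over Loop was 1.5 ± 0.14, a ratio exceeded by 0.745% of bins, which are shorter than Neat1. Loop and input differed by -0.03 ± 0.10 (adjusted p = 0.851).

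Neat1 was then divided into 4 sections of equal length, numbered from the 3′ end. HRS over Loop was 0.70 ± 0.15, 1.20 ± 0.14, 1.55 ± 0.17 and 1.94 ± 0.17 in sections 1 to 4 (log2 ± SE), all called with edgeR. Corrected for fragment length, the values were 1.08, 1.34, 1.39 and 2.05, so that sections 2 and 3 no longer differed by more than their errors. HRS over input was 1.22, 1.01, 1.25 and 1.76, each with an error of 0.13 to 0.17, and again section 4 was the highest. In CPM, section 4 reached 16.3, 14.6 and 18.4 in HRS replicates 1, 2 and 3, 4.37, 4.66 and 3.64 in Loop and 5.63, 5.97 and 4.38 in input. Section 1 reached 8.21, 8.86 and 10.5 in HRS, 5.18, 5.56 and 5.94 in Loop and 4.52, 4.19 and 4.26 in input.

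The contrast between the ends of Neat1 was measured inside each library. Section 4 held 1.99, 1.65 and 1.76 times the counts of section 1 in HRS, 0.844, 0.837 and 0.613 times in Loop and 1.25, 1.43 and 1.03 times in input. The log2 difference between HRS and Loop was 1.25, and 0.98 with fragment length corrected for, and between HRS and input it was 0.55 and 0.64. Libraries of the different groups did not overlap (exact permutation p = 0.1 in each case, the smallest possible). Section 1 was the part of Neat1 where Loop exceeded input (log2 ratio 0.50 ± 0.12, adjusted p = 0.00213 with edgeR). That excess fell to 0.07 (adjusted p = 0.871) when fragment length was corrected for.

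The same comparison between the genes separated the groups of libraries. Malat1 holds 12 fragments and Neat1 30, so only the differences between groups are read here. Counts over Malat1 were 0.524, 0.582 and 0.520 times those over Neat1 in HRS, 0.192, 0.174 and 0.204 times in Loop and 0.254, 0.301 and 0.279 times in input. HRS differed from Loop by 1.51 and from input by 0.97 on the log2 scale (exact permutation p = 0.1 each), and by 1.38 and 0.99 with fragment length corrected for. These differences between groups were larger than the spread between libraries of a group.

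**Figure D2:**
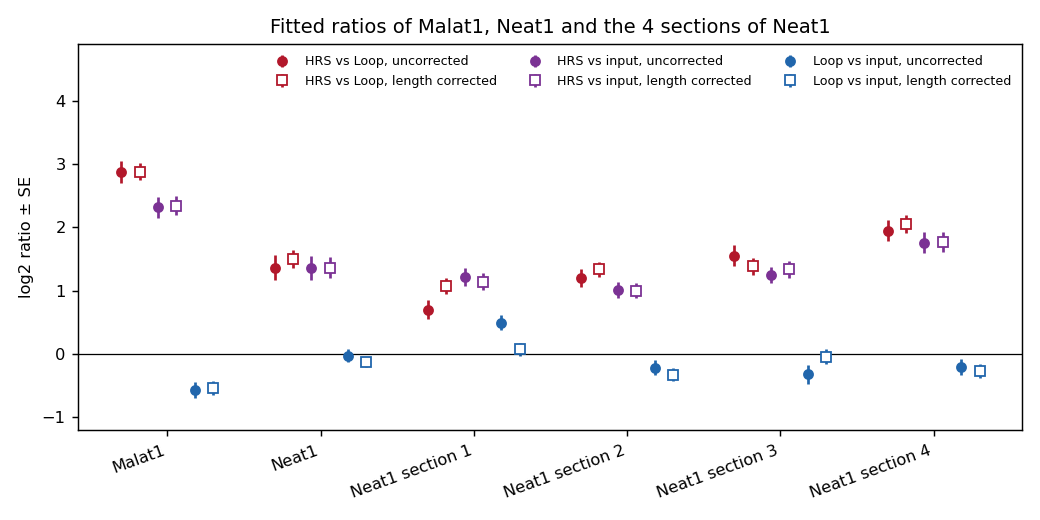
Log2 ratio ± SE (vertical axis) of Malat1, Neat1 and the sections of Neat1 from its 3′ end (1) to its 5′ end (4), from edgeR fits for 3 comparisons without (circles) and with (squares) correction for fragment length. HRS over Loop rises from 0.70 in section 1 to 1.94 in section 4, and Malat1 lies highest at 2.88, while Loop over input lies between -0.58 and 0.50.

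Within 10 kb bins, 9 of the 10 bins of the locus were called higher in HRS than in Loop, against 17.8% of all 245825 bins tested, and none was called lower. The highest were those that hold Malat1, chr19:5790001-5800000 at a log2 ratio of 2.35 ± 0.21 and chr19:5800001-5810000 at 2.53 ± 0.17. Both also hold sequence outside the gene. Their mean HRS values were 37.7 and 23.6 CPM, beside 23.1 CPM for the whole of Malat1. The bin with the 5′ end of Neat1, chr19:5840001-5850000, followed at 2.07 ± 0.19. The bin over the middle of Neat1, chr19:5830001-5840000, reached 1.36 ± 0.16. The bins starting at 5780001, 5810001, 5820001 and 5850001 lay between 1.04 and 1.12 and did not differ beyond their errors of 0.16 to 0.18. The lowest called bin was the first of the locus, chr19:5770001-5780000, at 0.68 ± 0.17. The last bin, chr19:5860001-5870000, stood at -0.03 ± 0.18 (adjusted p = 0.926 with edgeR). With fragment length corrected for it was 0.55 ± 0.14 (adjusted p = 0.00936), and all 10 bins were then called higher, against 15% of bins.

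In CPM the bin chr19:5790001-5800000 stood at 34.7, 31.2 and 47.2 in HRS replicates 1, 2 and 3, 7.44, 6.98 and 7.59 in Loop and 8.41, 8.25 and 7.90 in input. HRS replicate 3 was the highest there, while in the next bin, chr19:5800001-5810000, the HRS values of 22.3, 24.5 and 24.0 were close together. Loop in that bin was 4.12, 3.85 and 4.09 CPM and input 5.55, 8.45 and 5.47 CPM, with input replicate 2 apart from the other two. The bin of the Neat1 5′ end held 27.4, 24.7 and 32.6 CPM in HRS, 6.98, 7.10 and 5.93 in Loop and 10.2, 11 and 7.81 in input. HRS and the other groups did not overlap in any of these 3 bins.

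Against input, all 10 bins were called higher in HRS, against 15.2% of bins. The ratios peaked in the same bins. They were 2.35 ± 0.21 and 2.0 ± 0.19 in the bins that hold Malat1 and 1.68 ± 0.20 in the bin with the Neat1 5′ end. Elsewhere they were between 0.62 and 1.12. The lowest, in the last bin, lost its call without input replicate 2 (adjusted p = 0.108) or input replicate 3 (adjusted p = 0.0756). Between Loop and input, Loop was called lower in 2 bins, chr19:5800001-5810000 (-0.56 ± 0.14) and chr19:5840001-5850000 (-0.41 ± 0.12), against 18% of bins. Loop was called higher in 1 bin, the last one (0.63 ± 0.11), against 21.5% of bins. With fragment length corrected for, 0.0786% of bins were called lower in Loop genome-wide. The bin chr19:5800001-5810000, which holds the 5′ part of Malat1, was among them at -0.59 ± 0.12 (adjusted p = 0.0181), and no other bin of the locus was called. Without input replicate 2, the library highest in that bin, neither bin was called lower before correction.

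**Figure D3:**
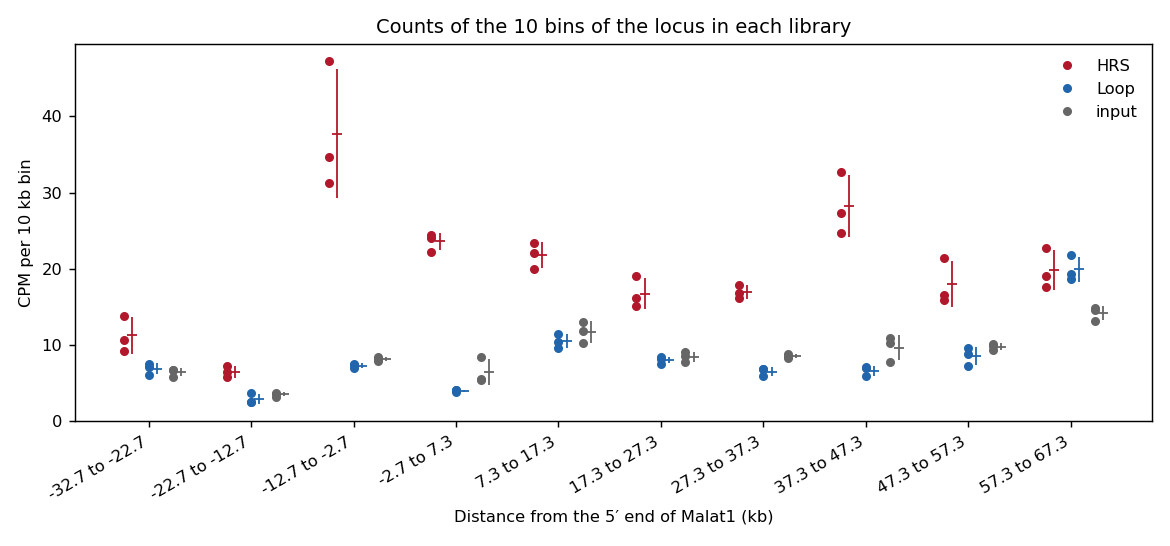
CPM in the 10 bins of the locus (vertical axis, linear) by distance from the 5′ end of Malat1 (horizontal axis, kb, increasing with the coordinate) in each library, with mean ± SD beside the points. The HRS libraries lie above all others in 9 bins, peak in the bin from -12.7 to -2.7 kb with a second maximum at 37.3 to 47.3 kb, and overlap with Loop in the last bin.

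At the level of single fragments, 144 of the 157 members had a count in some library and 13 had none. Every HRS library was above every Loop library in 101 members, against 19% of the counted fragments of the genome. Every HRS library was above every input library in 98 members, against 9.22%. Every HRS library was below every Loop library in 3 members (genome 12%) and below every input library in 0 (genome 15%). By gene, HRS was above all Loop libraries in 11 Malat1 fragments and in 27 of 30 Neat1 fragments. It was above all input libraries in 11 Malat1 and 24 Neat1 fragments. The 3 Neat1 fragments where HRS and Loop overlapped were between 57 and 216 bp long and lay in sections 1 and 3.

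Members without overlap also lay in runs, whose lengths were not compared with the flanks or the genome. A run of 22 consecutive counted fragments, chr19:5792921-5806405 (13.5 kb), had every HRS library above all Loop and input libraries. It spans Malat1 and extends past both of its ends. A run of 16 such fragments, chr19:5841406-5852070 (10.7 kb), covers the 5′ end of Neat1 and the sequence before it. Against Loop alone, the longest run was of 33 fragments, chr19:5785169-5812378 (27.2 kb).

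The edgeR test on single fragments called 81 of the 129 members tested higher in HRS than in Loop. The share over all 1744841 fragments tested was 8.02%. The test called 2 members lower, against 14.8%. Low counts kept 28 members out of that test. With fragment length corrected for, 85 were called higher, against 4.28%, and none was called lower. Against input, 83 of the 134 members tested were called higher, against 4.57%, and none lower, against 1.74%. This count fell to 52 without input replicate 2 and to 46 without input replicate 3, while the fragments called higher in the whole genome fell from 89627 to 33403 and 24065. By position, the calls against Loop comprised 11 of 11 tested fragments in Malat1 and 22 of 29 in Neat1. Outside the genes they comprised 14 of 21 tested fragments below Malat1, 20 of 29 between the genes and 14 of 39 above Neat1. The median log2 ratio over Loop was 2.81 over the tested fragments of Malat1 and 1.51 over those of Neat1, beside 0.04 over all fragments tested.

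The most counted member lay just below the 3′ end of Malat1. Fragment chr19:5795031-5795214 held 395, 277 and 494 counts in HRS, 84, 59 and 102 in Loop and 87, 89 and 73 in input. HRS replicate 3 was the highest and replicate 2 the lowest, yet all 3 exceeded the other libraries. Its log2 ratio was 2.48 ± 0.32 over Loop and 2.69 ± 0.32 over input. The next fragment, chr19:5795214-5795531, held 161, 132 and 130 counts in HRS, 18, 11 and 27 in Loop and 39, 23 and 15 in input, with log2 ratios of 3.08 ± 0.36 and 2.87 ± 0.31. The one after that, chr19:5795531-5795583, is 52 bp long and held 263, 166 and 226 counts in HRS, 138, 157 and 137 in Loop and 62, 32 and 42 in input. In this short fragment Loop lay far above input as well, and the log2 ratio of HRS was 2.70 ± 0.30 over input but 0.79 ± 0.30 over Loop (adjusted p = 0.0449 with edgeR). The latter call was lost in 5 of the 6 fits that left out 1 library (adjusted p up to 0.24), and the ratio was 2.27 with fragment length corrected for.

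Past the 5′ end of Malat1, the long fragment chr19:5803497-5806160 held 105, 174 and 125 counts in HRS, 17, 20 and 3 in Loop and 37, 82 and 41 in input. HRS exceeded Loop by a log2 ratio of 3.52 ± 0.39 (2.91 with fragment length corrected for) and input by 1.72 ± 0.31. At the 5′ end of Neat1, fragment chr19:5844813-5846915 held 34, 46 and 24 counts in HRS, 4, 3 and 3 in Loop and 16, 10 and 19 in input. Its log2 ratio was 3.48 ± 0.54 over Loop (2.89 with fragment length corrected for) and 1.57 ± 0.35 over input (adjusted p = 0.00604 with edgeR), the latter not called without input replicate 2 (adjusted p = 0.0674). Within Neat1 the fragment with the largest ratio over Loop was chr19:5843482-5844425, near the 5′ end. It held 31, 48 and 47 counts in HRS, 5, 4 and 1 in Loop and 23, 17 and 14 in input, with a log2 ratio of 3.81 ± 0.53. The fragments at the 5′ ends of both genes, 1960 and 2102 bp long, held 4 counts or fewer in each Loop library. Such low Loop counts were not confined to the 5′ ends. Fragment chr19:5775387-5778229, 2842 bp long and below Malat1, held 4, 4 and 0 counts in Loop. It held 8, 14 and 11 in HRS and 7, 5 and 11 in input.

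The 2 members called lower in HRS than in Loop were both shorter than 50 bp and lay in the last bin. Fragment chr19:5869974-5870013 held 54, 86 and 75 counts in HRS, 183, 214 and 159 in Loop and 59, 63 and 67 in input (log2 ratio -1.18 ± 0.31, adjusted p = 0.00312 with edgeR). Fragment chr19:5863759-5863802 held 33, 39 and 40 counts in HRS, 79, 96 and 94 in Loop and 26, 27 and 26 in input (-1.08 ± 0.34, adjusted p = 0.0132). In both, Loop stood apart from HRS and input alike. With fragment length corrected for, both ratios turned positive, 0.43 and 0.38, and were not called (adjusted p = 0.341 and 0.419). Without HRS replicate 1 neither was called before correction (adjusted p = 0.0575 and 0.111).

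**Figure D4:**
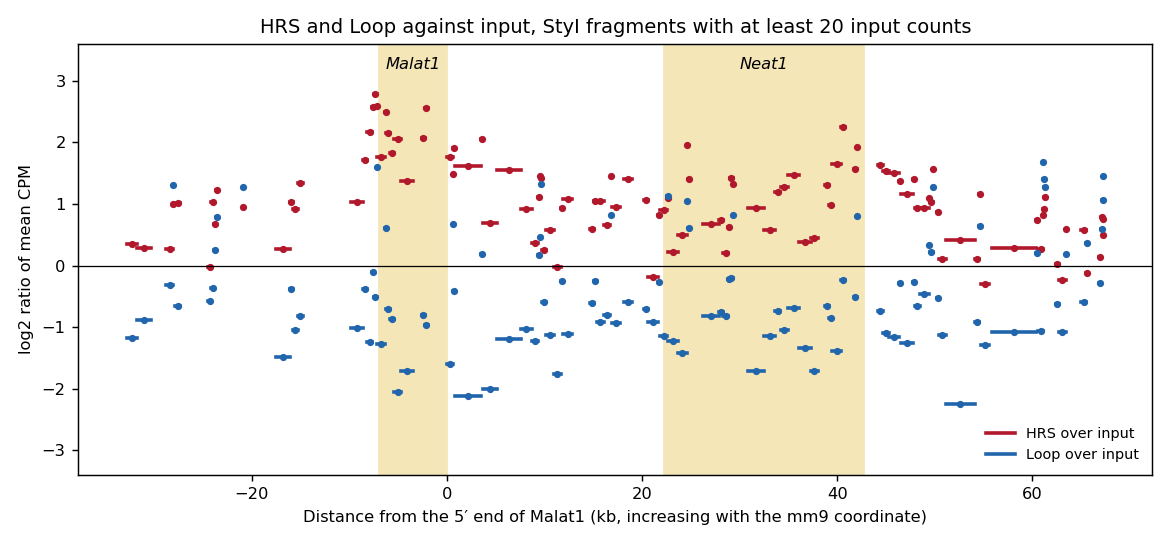
Log2 ratio of mean CPM to mean input CPM (vertical axis) for HRS (red) and Loop (blue) in fragments of the locus with at least 20 input counts on average, drawn to their length by distance from the 5′ end of Malat1 (horizontal axis, kb). Shaded spans are the genes, and the red values reach their maximum of 2.78 beside the 3′ end of Malat1 and lie above the blue ones except at short fragments.

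Fragment length moved with the fractions across the genome and was therefore examined in the members. Fragments of up to 200 bp held 46.8% to 55.6% of all counts in the Loop libraries, 28.9% to 31.98% in the HRS libraries and 25.6% to 27% in the inputs. Of the counted members, 37 were of that size and 107 were longer. Among the longer ones, every HRS library was above every Loop library in 89, against 23.6% genome-wide, and above every input library in 69, against 7.69%. Among the short ones the corresponding counts were 12 of 37, against 1.64%, and 29 of 37, against 14.9%. Loop was above all inputs in 22 of 37 short members, against 56.9%, and below all inputs in 69 of 107 longer ones, against 40.5%.

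Each member with at least 20 input counts on average was then set beside the genome's fragments of its own length, in 20 classes. All 112 such members had a ratio of HRS over Loop above the median of their class, and 71 were above its 95th percentile. Against input, 111 of 112 were above the median and 67 above the 95th percentile. All 8 Malat1 fragments of this depth were above the 95th percentile in both comparisons, as were 17 (Loop) and 15 (input) of 24 Neat1 fragments. Above Neat1 the share was lower, with 11 and 13 of 32.

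**Figure D5:**
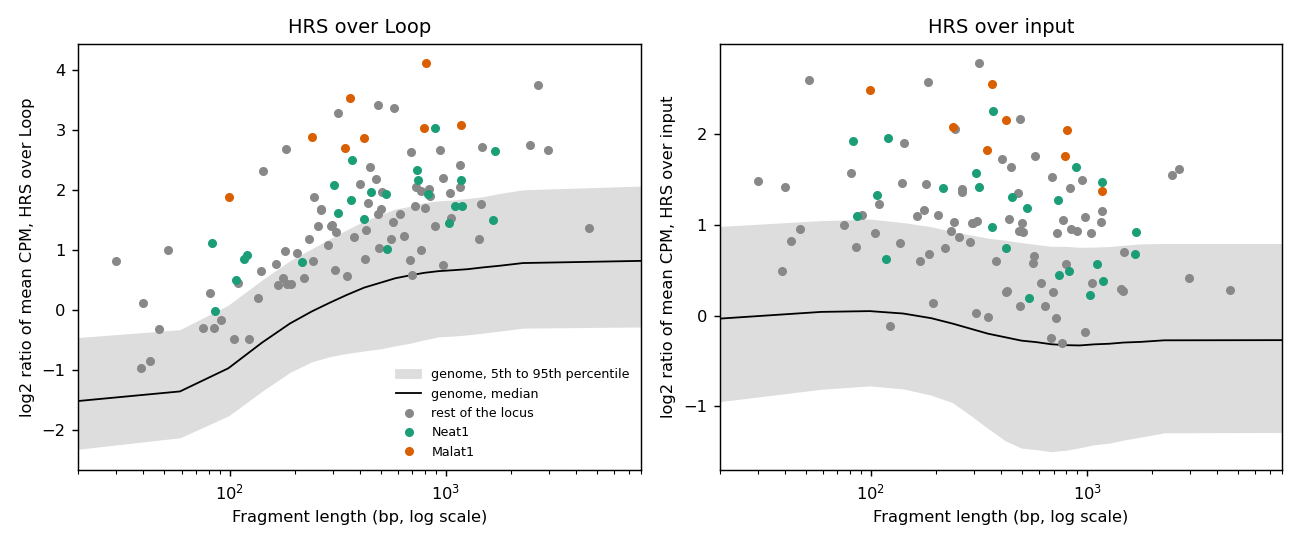
Log2 ratio of mean CPM of HRS over Loop (left) and over input (right) against fragment length (bp, log scale) for members with at least 20 input counts on average, over the median (line) and 5th to 95th percentile (grey) of the genome's fragments in 20 length classes. All 112 members lie above the median on the left and 111 on the right, and the 8 Malat1 fragments lie above the grey band in both.

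The windows of the genome whose 9 libraries were most like those of the locus were sought among 12849 windows of 100 kb at or above the median input count. Likeness was the root mean square difference in log2 CPM relative to the window's mean input. The nearest was chr3:68770001-68870000 at 0.0512, followed by chr4:133470001-133570000 at 0.0556, chr17:29170001-29270000 at 0.0571, chr6:125070001-125170000 at 0.0639 and chr3:95370001-95470000 at 0.0654. Their mean log2 ratio to input ranged from 1.13 to 1.22 in HRS and from -0.14 to -0.07 in Loop. The coordinates are those of mm9, and genes in these windows were not looked up.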

How the data were processed

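Per the labels' protocols, a biotinylated adaptor with an MmeI site was joined to StyI ends, and short tags cut by MmeI were sequenced. The submitters' processing notes name CASAVA 1.8.2 and the mm9 build. How tags were aligned, and what became of those with several matches, is not given in the sources used here. Whole-number counts per StyI fragment were deposited by the authors, and coordinates are used as the files give them. The last interval of each of 21 chromosomes has no second site and was left out. Repeat tables were not used.

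Counts were summed by fragment midpoint into windows of 100 kb, bins of 10 kb, the gene spans and 4 equal sections of Neat1. The groups compared were fitted on their own libraries by glmQLFit and glmQLFTest of edgeR 4.0.16 (R 4.3.3). TMM set the scale, filterByExpr removed low rows (minimum count 10), and p-values were adjusted over the whole table by Benjamini-Hochberg, with calls at 0.05. Gene and section rows were added to the bins and left out of scaling. They are not 10 kb long, so the shares of bins above or below them compare rows of unlike size. A standard error is the size of the log2 ratio over the root of its F statistic. CPM is scaled by library totals. The length correction divided fragments into 20 length classes and used the expected count of each library as an offset. The fits of HRS against Loop were tested on simulated counts. When the simulation held a length effect, the uncorrected fits called 6.77% of unchanged windows, 12.2% of unchanged bins and 11.4% of unchanged fragments. With the length correction these shares were 0.0397%, 0.000816% and 0.000122%. The simulated length effect was built from the same expected counts that the correction uses. These shares therefore cannot show how well the correction fits the length effect of the real libraries. Exact permutation tests were two-sided.

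The members and lists were chosen with earlier results of these data known. Named fragments are the 4 with the largest log2 ratio in each direction per comparison, among those called, with at least 20 counts on average and the same sign in all 3 pairs (Loop) or no overlap (input), the most counted fragment and those at the 5′ ends. Other fragments named were chosen after their values were seen. Genes of other speckle and paraspeckle proteins were not analysed here.

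HRS and Loop share replicate numbers in their titles, which may or may not be a pairing. Deviations from group means in 10 kb bins correlated at 0.16, 0.102 and 0.225 within numbers. HRS replicate 2, however, correlated more with Loop replicate 1, at 0.114. The main fits used no pairing, and fits blocked by replicate number are alternatives. Others were DESeq2 1.42.0, its median-of-ratios factors, scaling by library totals, fits with no filter, all 9 libraries in 1 fit, an adjusted p of 0.01, bins shifted by 5 kb, fragments over 200 bp, and each library left out.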

Additional observations from a re-analysis of the deposited data

How the results depend on the processing

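The ratios of HRS over Loop and over input for the locus, Malat1, Neat1 and its sections kept their direction and call under every alternative run. Over those alternatives HRS over Loop ranged from 2.71 to 2.95 for Malat1, from 1.23 to 1.51 for Neat1 and from 1.21 to 1.47 for the locus, and over input from 2.19 to 2.40, 1.22 to 1.43 and 1.20 to 1.47. With the replicate block the ratios over Loop were 2.87, 1.36 and 1.37, and the block changed no call of the locus, the genes, the sections, the bins or the flank windows. The count of members higher in HRS than in Loop moved from 81 to 85 with the replicate block. The count of members lower in HRS than in Loop moved from 2 to 1 at an adjusted p of 0.01, to 0 with the length correction, with or without the replicate block, and to between 0 and 3 when a library was left out. The count higher than input ranged from 46 to 82 when a library was left out. For Loop against input, Malat1 fell to -0.45 with fragments over 200 bp, and Neat1 ranged from -0.072 to 0.011 when a library was left out. The bins higher in Loop numbered 0 with the length correction or with fragments over 200 bp, 4 with shifted bins and 1 to 2 with a library left out. The bins lower in Loop numbered 1 with the length correction or all 9 libraries in 1 fit, 0 with fragments over 200 bp and 0 to 2 with a library left out. The last bin's ratio of HRS over Loop turned positive at 0.55 with the length correction, 0.54 with the replicate block added, 0.026 with all 9 libraries and 0.43 with fragments over 200 bp, and ranged from -0.21 to 0.072 with a library left out. The 2 members lower in HRS turned positive at 0.43 and 0.38 with the length correction, and at 0.41 and 0.39 with the block added. The locus-to-flank difference ranged from 0.66 to 1.05. Library totals moved the median fragment from 0.04 to 0.24 in HRS over Loop, with 207544 fragments then called higher and 206002 lower, against 140015 and 258768, and 93 members higher. Over input they moved the median 10 kb bin from -0.03 to -0.15, with 28928 bins then called higher and 43158 lower, against 37436 and 22611. Low counts kept 28 members out of the test against Loop and 23 out of that against input, among them 13 with no count in any library.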

Other observations

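Near the upper edge of the locus, 2 adjoining fragments of 14 and 21 bp, chr19:5863907-5863921 and chr19:5863921-5863942, were counted in some libraries only. The longer held 9, 25 and 0 counts in HRS replicates 1, 2 and 3, 20, 48 and 0 in the Loop replicates and 0 in each input. Across the genome the gap between libraries varied with fragment length. Of the fragments of 1 to 10 bp, 7.02%, 9.29% and 4.23% had a count in HRS replicates 1, 2 and 3. In the Loop replicates 19.15%, 11.87% and 9.01% had one. Of the fragments of 11 to 16 bp, 2.96% to 4.9% had a count in each HRS and Loop library, with little difference between replicates. Of those of 17 to 21 bp, 12.4% and 25.1% had a count in HRS replicates 1 and 2 against 3.47% in replicate 3, and 19.7% and 34.3% in Loop replicates 1 and 2 against 4.79% in replicate 3. Of the 20722 fragments of 22 to 26 bp, 42.7% and 63% had a count in HRS replicates 1 and 2 against 10.9% in replicate 3, and 58.6% and 72.3% in Loop replicates 1 and 2 against 16.1% in replicate 3, with 11% to 15.7% in the inputs. In fragments of 27 to 36 bp the gap was smaller, with 65.6% and 70.4% against 40.9% in HRS and 73.1% and 76.3% against 51.1% in Loop. Fragments of 37 to 60 bp showed a gap of a few percentage points at most, with 78.0% to 82.3% counted in all 9 libraries. Fragments of 22 to 26 bp held at most 0.541% of a library's counts, and those of 27 to 36 bp at most 1.92%. Their part in the results above was not tested.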
